A study of Homo sapiens and Mus musculus with 41 samples.

Results

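The cholesterol and fatty acid synthesis genes are the enzymes that build sterols and fatty acids from acetyl-CoA, with the desaturases and elongases that finish fatty acids and the regulators that set the level of the whole set. Rows of the deposited tables were taken by symbol from a list of 34 names, ignoring case and counting older names such as SC5DL and SC4MOL. All 34 names were found in at least 1 table. Each table held 30 of these genes among 23368 rows in the human tables and 23337 rows in the mouse table, and all 30 passed the filter on low values in each table (a normalized count of at least 10 in at least 2 libraries). By role they are 6 genes of the mevalonate pathway, 11 genes of the sterol branch (10 in the mouse table), 4 genes of regulation and sterol transport (SREBF1, SREBF2, INSIG1 and the carrier STARD4), 4 genes of fatty acid synthesis, and 5 genes of desaturation and elongation (6 in the mouse table, which has both Scd1 and Scd2).

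The data are 41 poly(A) RNA-seq libraries made from 4 tumour cell models in culture: HCC1954, a human breast carcinoma line with high HER2; MDA-MB-231, a human breast carcinoma line without oestrogen, progesterone or HER2 receptors; PC9, a human lung adenocarcinoma line with high EGFR; and LLC, the mouse Lewis lung carcinoma line from the C57/B6 strain. Every model had 4 stages, namely Lep (derivative cells from leptomeningeal metastases), Int (an intermediate stage derivative), BrM (a brain metastatic derivative) and Par (the parental line), with 2 or 3 libraries each. HCC1954 had 3 Lep, 2 Int, 2 BrM and 3 Par libraries, MDA-MB-231 and PC9 each had 2 Lep, 2 Int, 3 BrM and 3 Par libraries, and LLC had 3 Lep, 2 Int, 3 BrM and 3 Par libraries. All parental lines carried GFP. Leptomeningeal cells were washed out of the meningeal space of mice and grown in serum-containing medium until only GFP-positive cells were left, and cultures were passaged 3 times before RNA was taken. So the values describe cells in culture and not cells in the cerebrospinal fluid, and the labels do not say how the Int and BrM derivatives were collected. The series' design text calls the Par replicates technical and those of Int and Lep a mix of biological and technical ones, and does not describe those of BrM, so the p-values measure only the spread between these libraries. Each model was read against its own parental line, and the models were not tested against each other.

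Mammalian cells make cholesterol from acetyl-CoA through mevalonate, squalene and lanosterol, and make palmitate from the same precursor through malonyl-CoA. When membrane sterol is low, the transcription factor precursors encoded by SREBF1 and SREBF2 leave the endoplasmic reticulum, are cut in the Golgi and switch on both sets of genes; INSIG proteins hold them back when sterol is plentiful, and INSIG1 is itself one of their targets. The brain builds most of its own cholesterol, since lipoproteins of the blood do not cross into it freely.

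The promoters of the genes that carried the results below are shown first. Windows for 27 of the 30 human genes were found in the RefSeq promoter table (GRCh38.p14), with 37 start sites, and the 250 bases before each start were searched on both strands. The CCAAT box (CCAAT) was in 25 of the 37 windows (67.6%), against 32.0% of all 35116 windows in the table. The GC box (GGGCGG) was in 32 of the 37 windows (86.5%), against 42.6% of all windows. The E-box (CACGTG) was in 4 windows of ELOVL5, INSIG1 and SC5D (10.8%), against 6.35% of all windows. The core of the sterol regulatory element (TCACNCCAC) was in 1 window, that of SREBF2 (2.70%), against 0.883% of all windows. A match describes these letters and is not a measured binding site, and motifs may overlap one another. INSIG1 and SCD are printed because they were among the genes that moved most across stages in PC9 (and Insig1 in LLC), MSMO1 because it moved with them in PC9, SREBF2 because it holds the core, and STARD4 because it went its own way. Each line runs 5′ to 3′ on the gene's strand, and capitals mark any of the 4 motifs on either strand. The windows are SREBF2 at chr22:41832855-41833104 (plus strand), INSIG1 at chr7:155297628-155297877 (plus strand), SCD at chr10:100346983-100347232 (plus strand), MSMO1 at chr4:165327419-165327668 (plus strand) and STARD4 at chr5:111512536-111512785 (minus strand).
SREBF2: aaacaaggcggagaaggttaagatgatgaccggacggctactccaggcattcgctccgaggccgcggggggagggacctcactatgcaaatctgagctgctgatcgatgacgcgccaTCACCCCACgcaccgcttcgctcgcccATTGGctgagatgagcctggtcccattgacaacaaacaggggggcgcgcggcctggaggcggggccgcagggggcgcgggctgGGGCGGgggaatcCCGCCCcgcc
INSIG1: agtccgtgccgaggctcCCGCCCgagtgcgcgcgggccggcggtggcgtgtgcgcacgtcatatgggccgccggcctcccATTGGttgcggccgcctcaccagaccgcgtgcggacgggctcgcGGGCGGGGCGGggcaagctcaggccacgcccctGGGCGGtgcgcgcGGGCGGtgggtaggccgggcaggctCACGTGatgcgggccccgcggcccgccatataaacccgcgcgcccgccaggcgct
SCD: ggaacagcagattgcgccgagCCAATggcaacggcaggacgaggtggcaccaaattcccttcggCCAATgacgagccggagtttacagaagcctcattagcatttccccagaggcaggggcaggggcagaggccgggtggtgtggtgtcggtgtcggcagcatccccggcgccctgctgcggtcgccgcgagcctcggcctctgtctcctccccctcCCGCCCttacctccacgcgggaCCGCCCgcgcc
MSMO1: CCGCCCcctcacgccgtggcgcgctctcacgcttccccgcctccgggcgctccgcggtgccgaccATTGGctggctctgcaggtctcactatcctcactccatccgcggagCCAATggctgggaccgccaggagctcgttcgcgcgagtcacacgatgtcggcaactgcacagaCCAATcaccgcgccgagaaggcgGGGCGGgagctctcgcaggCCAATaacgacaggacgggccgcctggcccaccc
STARD4: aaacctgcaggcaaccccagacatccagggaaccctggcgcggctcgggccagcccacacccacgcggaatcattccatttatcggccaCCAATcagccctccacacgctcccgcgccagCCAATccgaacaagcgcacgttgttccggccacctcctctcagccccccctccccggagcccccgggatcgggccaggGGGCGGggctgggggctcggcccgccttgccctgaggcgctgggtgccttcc

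Values are the authors' normalized counts, that is, reads per gene divided by 1 size factor per library. They can be compared between libraries for 1 gene but not between genes, since they are not divided by gene length. The libraries held between 16792027 and 110830546 recovered reads. A gene is said to have risen or fallen when limma on log2(value + 1) gave a Benjamini-Hochberg adjusted p under 0.05 over all tested genes and a change of at least 2-fold. ERBB2 (HER2) ran from 57461 to 398639 in HCC1954. EGFR ran from 1527 to 1928 in Lep, 1595 to 1867 in Int and 11716 to 15117 in BrM of PC9, against 9147 to 9752 in Par, so the line labelled as high in EGFR had far less of it in Lep and Int than in BrM and Par. MDA-MB-231 had ERBB2 from 2748 to 3998, with ESR1 and PGR at no more than 19.3 and 58.3. In LLC the epithelial markers Epcam and Cdh1 were at or near 0 (at most 2.56 and 4.76), while Krt8 ran from 863 to 10289.9. TruSeq v2 libraries do not mark strand, so reads of a gene and of a gene overlapping it on the other strand cannot be told apart. FDPS, HSD17B7 and SCD have pseudogene copies, and the labels do not say how reads shared with such copies were counted. Same-numbered libraries had correlated deviations (above 0.1) in all 3 pairs of only 1 comparison, BrM with Par of MDA-MB-231. Differently numbered libraries correlated there too: BrM replicate 2 had 0.337 with Par replicate 3 and 0.265 with Par replicate 2. So these correlations do not show that the numbers pair the libraries.

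Over the 4 models the set did not move in 1 direction. The genes called were all higher in Int and BrM of PC9 and all lower in Lep of LLC when each was set against Par, they went both ways in Lep and Int of HCC1954, and 1 was called in 1 comparison of MDA-MB-231. In Lep with Par, the number of the 30 genes that rose and fell was 4 and 1 in PC9, 0 and 14 in LLC, 1 and 3 in HCC1954, and 0 and 0 in MDA-MB-231. The heatmap of fold changes gives every gene in every comparison.

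**Figure D1:**
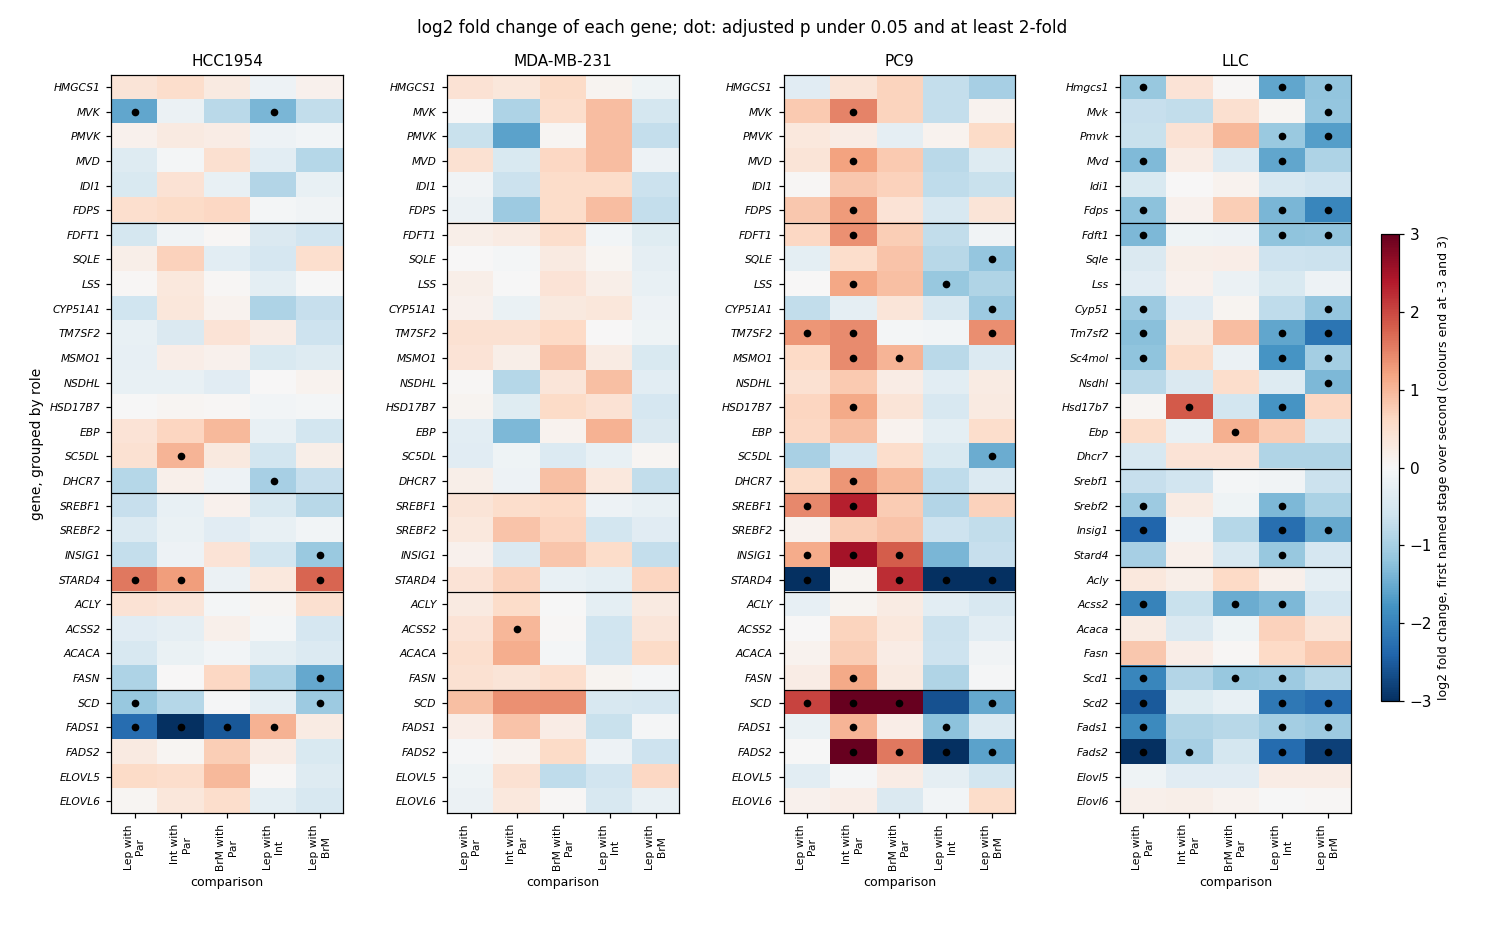
Each cell is the log2 fold change of 1 gene (rows, in the order mevalonate pathway, sterol branch, regulation and sterol transport, fatty acid synthesis, desaturation and elongation, with lines between roles) in 1 comparison (columns, first named stage over second), with 1 panel per model. Dots mark genes with an adjusted p under 0.05 and at least a 2-fold change: 15 in Int with Par of PC9, 14 in Lep with Par of LLC and 0 in Lep with Par of MDA-MB-231. Colours end at -3 and 3, and SCD, STARD4 and FADS2 in PC9, Fads2 in LLC and FADS1 in HCC1954 lie beyond that in some columns.

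In PC9 the intermediate derivative had the broadest rise of the set. In Int with Par 15 of 30 genes rose and 0 fell, against 6.24% and 7.71% of all 14475 tested genes. A further 9 genes were higher at an adjusted p under 0.05 by less than 2-fold, and 2 were lower. At an unadjusted p under 0.05 limma gave 2 genes lower, as did edgeR and DESeq2, which both called 15 higher and 0 lower. Limma gave 24 genes higher at that limit, which 66.3% of all tested genes passed, both directions together. The median over the 30 genes was 0.96 on the log2 scale, against 0.02 over all tested genes. Every role took part: 3 of 6 mevalonate genes, 6 of 11 genes of the sterol branch, 2 of 4 genes of regulation and sterol transport, 1 of 4 genes of fatty acid synthesis and 3 of 5 genes of desaturation and elongation rose.

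SCD, the stearoyl-CoA desaturase that makes monounsaturated fatty acids, had the largest rise in both Int and BrM with Par of PC9. Its normalized counts were 2294 and 22741 in Lep, 42432 and 46279 in Int and 21325, 22509 and 19017 in BrM, against 1621, 2041 and 1681 in Par. Both Int libraries and all 3 BrM libraries lay far above Par, whereas the 2 Lep libraries were about 10 times apart, the first near Par and the second just above the BrM libraries. The log2 fold change of SCD was 4.64 ± 0.61 (SE, adjusted p = 2.28e-05) in Int with Par and 3.56 ± 0.54 (SE, adjusted p = 0.0002) in BrM with Par. FADS2, the first desaturase of polyunsaturated fatty acid synthesis, was at 137 and 367 in Lep, 2132 and 2399 in Int and 681, 725 and 644 in BrM, against 235, 232 and 215 in Par. Its Int and BrM libraries did not overlap with Par, and its Lep libraries lay on both sides of Par. FADS2 rose by 3.31 ± 0.27 (SE, adjusted p = 4.56e-07) on the log2 scale in Int with Par and by 1.58 ± 0.24 (SE, adjusted p = 0.000206) in BrM with Par. FADS1, which acts after FADS2, rose less in Int, by 1.03 ± 0.18 (SE, adjusted p = 0.000297) on the log2 scale.

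Among the regulators, INSIG1, which retains the SREBF products in the endoplasmic reticulum, had 395 and 2055 in Lep, 2318 and 2362 in Int and 1523, 1439.7 and 1424 in BrM, against 445, 419 and 381 in Par. The second Lep library stood with Int and BrM and the first among the Par libraries. INSIG1 rose by 2.50 ± 0.44 (SE, adjusted p = 0.000259) on the log2 scale in Int with Par and by 1.82 ± 0.39 (SE, adjusted p = 0.00223) in BrM with Par. SREBF1, whose products drive mainly fatty acid genes, had 3858 and 9642 in Lep, 11497 and 11078 in Int and 3706, 3936 and 3759 in BrM, against 2098, 2589 and 2087 in Par. Every derivative library was above every Par library, and the log2 fold change was 2.33 ± 0.25 (SE, adjusted p = 4.96e-06) in Int with Par. SREBF2, whose product drives mainly sterol genes, had 1864 and 3844 in Lep, 4403 and 3845 in Int and 4564, 4464 and 4409.6 in BrM, against 2395, 2593 and 2432 in Par. It was higher in Int and BrM than in Par without overlap, but by less than 2-fold, with log2 fold changes of 0.73 ± 0.20 (SE, adjusted p = 0.00604) and 0.86 ± 0.18 (SE, adjusted p = 0.00185).

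The sterol and mevalonate enzymes that rose in Int of PC9 did so by 1.14 to 1.49 on the log2 scale. They were MVK (mevalonate kinase), MVD (mevalonate diphosphate decarboxylase), FDPS (farnesyl diphosphate synthase), FDFT1 (squalene synthase), LSS (lanosterol synthase), TM7SF2 (a sterol C14 reductase), MSMO1 (the C4 methyl sterol oxidase), HSD17B7 (a 3-ketosteroid reductase) and DHCR7 (the last reductase of the pathway). HMGCS1, which makes the substrate of the rate-limiting step, was not among them. Its counts were 1138 and 1824 in Lep, 2588 and 2193 in Int and 2994, 2965 and 2672 in BrM, against 1863, 1737 and 1845 in Par, with a log2 fold change of 0.39 ± 0.15 (SE, adjusted p = 0.0313) in Int with Par. CYP51A1 (lanosterol demethylase) and SC5DL (sterol C5 desaturase) were lower in Int, at -0.27 ± 0.09 (SE, adjusted p = 0.0187) and -0.51 ± 0.10 (SE, adjusted p = 0.000532), both less than 2-fold. FASN, the fatty acid synthase, had 8952 and 19935 in Lep, 27745 and 22656 in Int and 13776, 14238 and 13377 in BrM, against 10804, 11908 and 11652 in Par. Its Int libraries were above all Par libraries, with a log2 fold change of 1.13 ± 0.22 (SE, adjusted p = 0.000675); this call was lost without Int replicate 1 (0.99) and with quantile normalization (0.89).

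**Figure D2:**
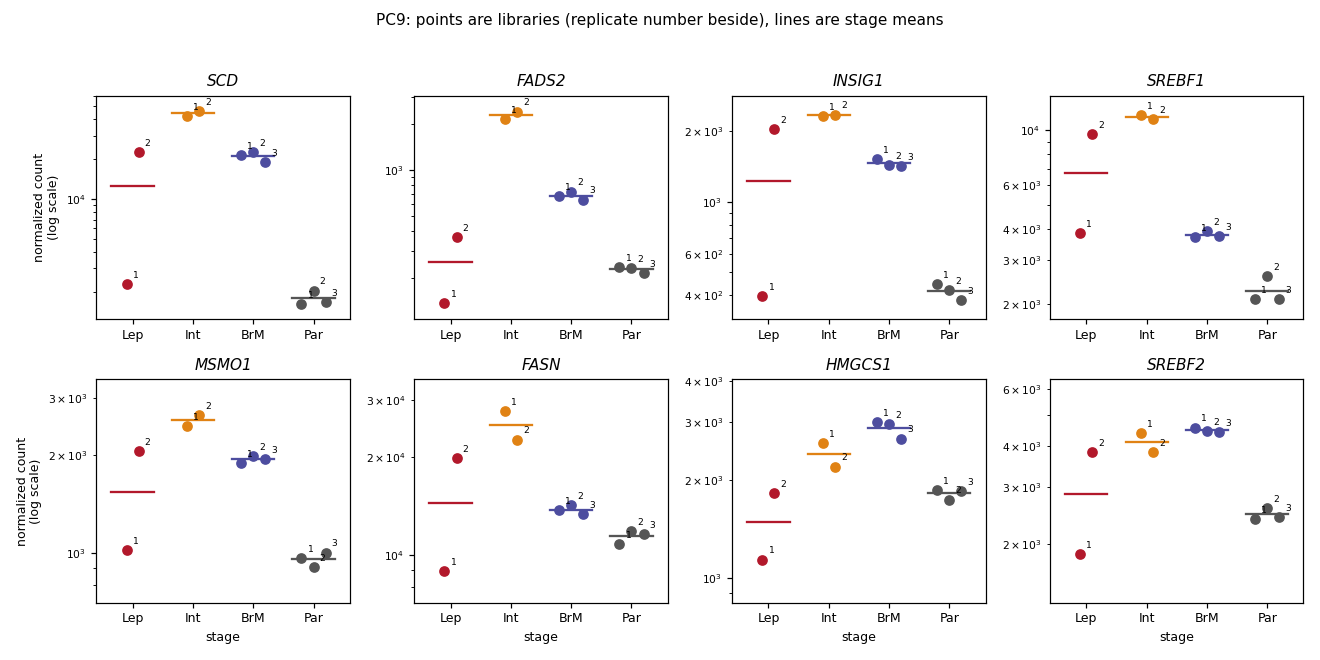
Normalized counts (log scale) of 8 genes in the 10 PC9 libraries, by stage; points are libraries with the replicate number beside them and lines are stage means. For SCD, INSIG1, SREBF1, MSMO1, FASN and SREBF2 the second Lep library lies well above the first, which lies closer to the Par libraries.

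In BrM with Par of PC9, 5 of 30 genes rose and 0 fell, against 4.62% and 3.10% of all tested genes, and the median was 0.59. The 5 were SCD, STARD4, INSIG1, FADS2 and MSMO1, and 18 others were higher at an adjusted p under 0.05 by less than 2-fold. For genes lower, limma, edgeR and DESeq2 each gave 2 at an unadjusted p under 0.05, and edgeR and DESeq2 also called 0. Limma gave 23 genes higher at that limit, which 52.4% of all tested genes passed, both directions together. MSMO1 was under 2-fold without BrM replicate 2 or Par replicate 2. STARD4, a carrier that moves sterol between membranes, was scarcely expressed in PC9: it had 0 and 0 in Lep, 11.95 and 6.56 in Int and 49.4, 43.3 and 34.7 in BrM, against 8.58, 6.11 and 10.8 in Par. BrM was higher than every other group, while both Lep libraries had 0 reads. Read against the limit that 3 reads in a Lep library allow (2.51 normalized counts), STARD4 was at least 3.39-fold lower in Lep than in Par, at least 3.69-fold lower than in Int and at least 16.9-fold lower than in BrM. With log2(value + 10) in place of log2(value + 1), STARD4 was no longer called in Lep with Par (-0.88) or in Lep with Int (-0.93).

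In Lep with Par of PC9, 4 of 30 genes rose and 1 fell, against 6.65% and 8.49% of all tested genes, and the median was 0.17. TM7SF2 was the steadiest of those that rose. It had 541 and 817 in Lep, 664 and 749.8 in Int and 255, 255 and 246 in BrM, against 251, 271 and 270.1 in Par, with no overlap between Lep and Par or BrM. Its log2 fold change was 1.33 ± 0.14 (SE, adjusted p = 3.52e-06) in Lep with Par and 1.40 ± 0.14 (SE, adjusted p = 1.69e-06) in Lep with BrM. The other 3 rested on the second Lep library. SCD was 2.03 ± 0.61 (SE, adjusted p = 0.0103), SREBF1 1.44 ± 0.25 (SE, adjusted p = 0.000262) and INSIG1 1.12 ± 0.44 (SE, adjusted p = 0.038) on the log2 scale, and without Lep replicate 2 they were 0.37, 0.78 and -0.067 and none passed. With only the Lep and Par libraries fitted, SCD (limma adjusted p = 0.0622) and INSIG1 (limma adjusted p = 0.132) did not pass. INSIG1 also missed the test when any 1 Par library was left out. Without Lep replicate 1 instead, 9 genes rose and 1 fell. STARD4 was the gene that fell.

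The 2 Lep libraries of PC9 were compared directly as a description, since 1 pair allows no test. In the second library 8 of 30 genes were at least 2-fold above the first and 0 at least 2-fold below it, and the median difference was 0.73 on the log2 scale. Over all tested genes 2.83% were at least 2-fold above, 2.28% at least 2-fold below, and the median difference was -0.004. Between replicates of Int, BrM and Par in PC9 no gene of the set differed by 2-fold, and the medians lay between -0.04 and 0.03.

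Against the intermediate derivative, Lep of PC9 was lower for nearly the whole set. In Lep with Int 0 of 30 genes rose and 4 fell, against 0.228% and 0.380% of all tested genes, and the median was -0.72. With an unadjusted p under 0.05 as the limit, limma gave 0 genes higher and 27 lower, edgeR 0 and 26, and DESeq2 0 and 25. Of all tested genes 17.7% passed that limit in limma, both directions together. At an adjusted p under 0.05 limma gave 12 genes of the set lower, whatever their size. FADS2 (-3.33 ± 0.30, adjusted p = 0.000126), FADS1 (-1.22 ± 0.20, adjusted p = 0.00937), LSS (-1.15 ± 0.21, adjusted p = 0.0172) and STARD4 fell. SCD, at -2.62 ± 0.66 (SE, adjusted p = 0.056), did not pass. With only the Lep and Int libraries fitted, FADS2, FADS1 and LSS did not pass (limma adjusted p = 0.101, 0.43 and 0.458). LSS was at -0.65 without Lep replicate 1, less than 2-fold. FADS1 was at -0.74 without Lep replicate 1 and missed the adjusted p of 0.05 without either Int library. Leaving out Lep replicate 2 raised the number that fell to 17, and leaving out Lep replicate 1, Int replicate 1 or Int replicate 2 left 2. In Lep with BrM 1 gene rose and 6 fell, against 7.83% and 10.8% of all tested genes, with a median of -0.41. TM7SF2 rose, and STARD4, FADS2 (-1.60 ± 0.27, adjusted p = 0.000168), SCD (-1.53 ± 0.61, adjusted p = 0.0386), SC5DL (-1.48 ± 0.10, adjusted p = 5.4e-08), SQLE (squalene epoxidase; -1.16 ± 0.16, adjusted p = 3.99e-05) and CYP51A1 (-1.10 ± 0.09, adjusted p = 3.25e-07) fell. The SCD value turned to 0.12 without Lep replicate 1 and was -0.75 in edgeR and -0.74 in DESeq2, where it did not pass. FADS2 (-0.89), SQLE (-0.74) and CYP51A1 (-0.96) were also less than 2-fold lower without Lep replicate 1. Without Lep replicate 1, 2 genes rose and 2 fell; without Lep replicate 2, 1 rose and 11 fell.

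A property of the PC9 libraries moved with stage. Spearman's rho across genes between a gene's deviation from its mean over libraries and its transcript length was -0.463 and -0.374 in Lep, -0.475 and -0.428 in Int, 0.397, 0.368 and 0.266 in BrM, and 0.330, 0.346 and 0.349 in Par. Genes are not independent replicates, so this carries no p. With length as a correction, 16 genes rose and 0 fell in Int with Par, 5 rose and 0 fell in BrM with Par, and 3 rose and 1 fell in Lep with Par. Marker sums also differed by stage in PC9: that of 4 carcinoma markers ran from 298481 to 330349 in Lep, 347641 to 356311 in Int and 246463 to 277959 in BrM, against 161525 to 169816 in Par. Host cells would be mouse cells, so the sums below, of human genes, do not measure them. The sum of 3 endothelial markers was 832 to 1126 in Lep, 875 to 903 in Int and 264 to 282 in BrM, against 262 to 309 in Par. The sum of 3 choroid plexus markers was 161 to 191 in Lep, 174 to 258 in Int and 8.67 to 23.6 in BrM, against 28.1 to 37.8 in Par, with TTR at 0 in every library. Both sums were higher in Lep and Int than in BrM and Par. The choroid plexus difference was that of FOLR1 alone (157 to 189 in Lep, 171 to 256 in Int, 4.82 to 19.7 in BrM, 25.6 to 33.8 in Par), since KCNJ13 was at most 4.05. In the endothelial sum PECAM1 and CDH5 were higher in Lep and Int, and KDR was at most 1.22. The sum of 5 macrophage and microglia markers was 3159 to 4504 in Lep, 2876 to 3034 in Int and 2275 to 2442 in BrM, against 3118 to 3284 in Par, that of 5 fibroblast and pericyte markers 478 to 641 in Lep, 532 to 614 in Int and 682 to 816 in BrM, against 370.4 to 445 in Par, where DCN and LUM were at 0 throughout, and that of 4 glial and neuronal markers no more than 27.0 in any library. The part of these differences in the results was not tested.

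In LLC, the mouse model, many genes of the set fell in the leptomeningeal derivative. Of the 30 genes 0 rose and 14 fell in Lep with Par, against 8.00% and 12.3% of all 13494 tested genes, and the median was -0.91 on the log2 scale against 0.003 over all tested genes. By an unadjusted p under 0.05 the counts were 3 higher and 21 lower in limma, 3 and 22 in edgeR, and 3 and 21 in DESeq2. Of all tested genes 55.9% passed that limit in limma, both directions together. In edgeR and in DESeq2 0 rose and 15 fell. By role, 3 of 6 mevalonate genes, 4 of 10 genes of the sterol branch, 2 of 4 genes of regulation and sterol transport, 1 of 4 genes of fatty acid synthesis and 4 of 6 genes of desaturation and elongation fell. Lep replicates were left out in turn, and the number that fell stayed between 12 and 15.

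The desaturases Fads2 and Scd2 fell most. Fads2 had 106, 143 and 217 in Lep, 601 and 927 in Int and 1155, 838 and 1152 in BrM, against 1749.8, 1555 and 1244 in Par, so that every Lep library was below every other library. Its log2 fold change in Lep with Par was -3.33 ± 0.26 (SE, adjusted p = 1.99e-06). Scd2, a desaturase found in mice beside Scd1, had 6312, 7708 and 20804 in Lep, 42879 and 46215 in Int and 50877, 45797 and 51076 in BrM, against 61897, 56109 and 55039.9 in Par. Lep replicate 3 stood between the other Lep libraries and the remaining stages. Scd2 fell by 2.52 ± 0.32 (SE, adjusted p = 7.5e-05) on the log2 scale. Scd1 had 4202, 5754 and 7226 in Lep, 11982 and 11714 in Int and 11206, 8205 and 10711 in BrM, against 22252, 21758 and 21145 in Par. It fell by 1.96 ± 0.18 (SE, adjusted p = 6.26e-06). Scd1 was highest in Par, lower in Int and BrM, and lowest in Lep, with no overlap between Lep and any other stage. Fads1 fell by 1.92 ± 0.16 (SE, adjusted p = 2.72e-06). The elongases Elovl5 (-0.12) and Elovl6 (0.16) did not pass.

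In LLC Insig1 had 539, 726 and 1524 in Lep, 3877 and 4266 in Int and 2438, 2454 and 2413 in BrM, against 4979, 4342 and 3883 in Par. All Lep libraries were lowest, and BrM lay below Int and Par. It fell by 2.38 ± 0.28 (SE, adjusted p = 3.96e-05) in Lep with Par. Srebf2 had 3880.3, 4806 and 6107 in Lep, 12518 and 12019 in Int and 9898, 8301 and 9952 in BrM, against 10541, 10417 and 9847 in Par. Its log2 fold change in Lep with Par was -1.08 ± 0.15 (SE, adjusted p = 0.000123), and it missed the 2-fold threshold without Lep replicate 1 (-0.92). Srebf1 was at 3628, 3963 and 5950.0 in Lep, 4921 and 4581 in Int and 6764, 6934 and 6830.4 in BrM, against 7561, 6899 and 6786 in Par, with a log2 fold change of -0.68 ± 0.16 (SE, adjusted p = 0.00358), less than 2-fold. Both factors were lower in every Lep library than in any Par library. Stard4 was at -0.999 (adjusted p = 0.00207), just inside the 2-fold limit, and was not called.

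Hmgcs1 had 1508, 1497 and 1650.2 in Lep, 3801 and 5468 in Int and 3605, 3255 and 3638 in BrM, against 3812, 3546 and 2941 in Par. It fell by 1.14 ± 0.15 (SE, adjusted p = 7.32e-05) in Lep with Par. Its 3 Lep libraries lay close together and below all others. The other mevalonate and sterol genes that fell were Fdft1 (-1.34), Mvd (-1.33), Tm7sf2 (-1.26), Fdps (-1.23), Sc4mol (-1.20) and Cyp51 (-1.09). Of these, Cyp51 was at -0.93 without Lep replicate 1 and Tm7sf2 at -0.87 without Lep replicate 2, both less than 2-fold. Idi1 (isopentenyl diphosphate isomerase), Sqle, Lss, Hsd17b7, Ebp (a sterol isomerase), Dhcr7, Mvk, Pmvk and Nsdhl were not called, with log2 fold changes from -0.82 to 0.54.

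Of the 4 genes of fatty acid synthesis 1, Acss2, fell in Lep with Par of LLC. Acss2, which makes acetyl-CoA from acetate, had 222, 132 and 317 in Lep, 629.8 and 452 in Int and 280.3, 310.0 and 306 in BrM, against 869, 848 and 813 in Par. It fell by 2.00 ± 0.26 (SE, adjusted p = 8.21e-05) in Lep with Par and fell by 1.49 ± 0.26 (SE, adjusted p = 0.000516) in BrM with Par. Its Lep and BrM libraries overlapped. Fasn had 23064, 24688 and 14738 in Lep, 12849 and 13812 in Int and 12681, 10637 and 12326 in BrM, against 11118, 11424 and 12333 in Par, and its Lep libraries were all above all Par libraries. The log2 fold change of Fasn was 0.81 ± 0.17 (SE, adjusted p = 0.00216), short of 2-fold, and 1.04 without Lep replicate 3, when it passed. Acly (ATP citrate lyase) and Acaca (acetyl-CoA carboxylase) were at 0.32 ± 0.12 (SE, adjusted p = 0.0395) and 0.26 ± 0.14 (SE, adjusted p = 0.147).

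**Figure D3:**
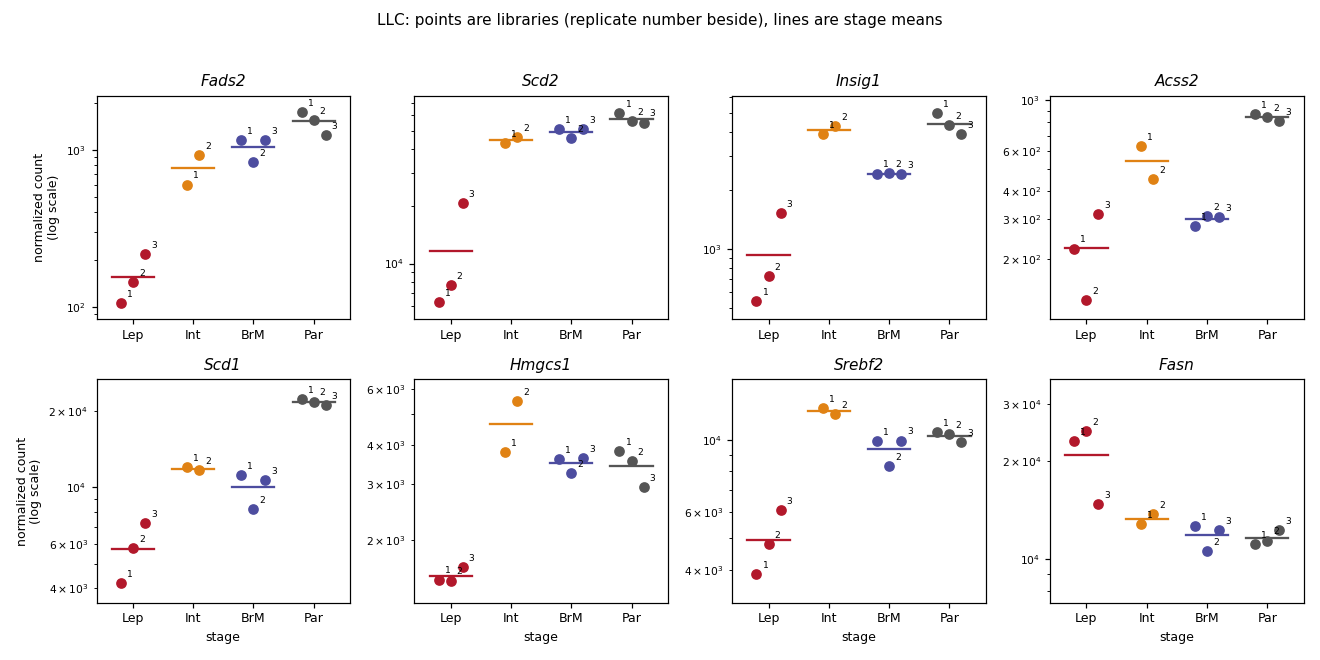
Normalized counts (log scale) of 8 genes in the 11 LLC libraries, by stage; points are libraries with the replicate number beside them and lines are stage means. Fads2, Scd2, Insig1, Scd1, Hmgcs1 and Srebf2 are lowest in the 3 Lep libraries, Acss2 is low in Lep and BrM, and Fasn is highest in Lep.

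Few genes of the set were called in the other LLC derivatives against Par. The genes of desaturation and elongation were nevertheless lower, with medians of -0.62 in Int and -0.44 in BrM. Fads1, not called, was at 3998 and 4006 in Int and 4257, 3908 and 4279 in BrM, against 7701, 7384 and 7194 in Par. In Int with Par 1 gene rose and 1 fell, against 6.40% and 5.08% of all tested genes, with a median of 0.07. Hsd17b7 had 511, 776 and 354 in Lep, 1605 and 1990.2 in Int and 367, 286 and 367 in BrM, against 580.4, 481 and 439.9 in Par, and its rise of 1.84 ± 0.27 (SE, adjusted p = 0.000695) set both Int libraries above all others. Fads2 fell by 1.01 ± 0.29 (SE, adjusted p = 0.0242), but it was at -0.70 without Int replicate 1, -0.90 without Par replicate 1 and -0.98 without Par replicate 2, and passed in none of these, nor in edgeR or DESeq2. In BrM with Par 1 gene rose and 2 fell, against 8.14% and 15.1% of all tested genes, with a median of -0.09. Ebp had 516, 367 and 439 in Lep, 229.7 and 290.3 in Int and 519, 782 and 614 in BrM, against 318, 314 and 269 in Par. It rose by 1.07 ± 0.19 (SE, adjusted p = 0.000701) in BrM; Acss2 and Scd1 (-1.13 ± 0.18, adjusted p = 0.00027) fell. Without BrM replicate 2 neither Ebp (0.91) nor Scd1 (-0.99) reached 2-fold, and without BrM replicate 1 the counts were 3 higher and 2 lower.

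Set against the other derivatives, Lep of LLC was again low. In Lep with Int 0 of 30 genes rose and 16 fell, against 8.47% and 14.0% of all tested genes, with a median of -1.06. In Lep with BrM 0 rose and 13 fell, against 11.1% and 6.85% of all tested genes, with a median of -0.91. At an unadjusted p under 0.05 limma gave 3 genes higher in each of these 2 comparisons, with 20 lower in Lep with Int and 23 in Lep with BrM. Of all tested genes 54.7% and 54.4% passed that limit, both directions together. Neither edgeR nor DESeq2 called a gene of the set higher in these 2 comparisons. The largest falls in Lep with Int were Fads2 (-2.32 ± 0.29, adjusted p = 7.04e-05) and Insig1 (-2.27 ± 0.31, adjusted p = 0.000127), and those in Lep with BrM were Fads2 (-2.79 ± 0.26, adjusted p = 1.01e-05) and Scd2 (-2.29 ± 0.32, adjusted p = 0.000205). These comparisons share their Lep libraries with Lep with Par, and so are not independent of it.

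Markers of other cells were counted beside these values. Only in LLC are the tumour cells and the host mice of the same species. In LLC the summed level of 5 fibroblast and pericyte markers, most of it Col3a1, ran from 13384 to 27823 in Lep, 26850 to 61371 in Int, 65069 to 71052 in BrM and 109079 to 122193 in Par. Of the 5 markers only Pdgfrb was highest in Lep, at 394 to 1228, against 47.8 to 64.1 in Int, 52.4 to 82.4 in BrM and 120 to 141 in Par. The summed level of 4 carcinoma markers ran from 3062 to 7862 in Lep, 10440.1 to 11948 in Int and 16447 to 24257 in BrM, against 15368 to 17272 in Par. That of 5 macrophage and microglia markers was 131 to 291 in Lep, 5163 to 5591 in Int, where nearly all of it was Cd68, and 175 to 192 in BrM, against 202 to 240.2 in Par. Aif1 and Itgam were at 0 in BrM. At low counts, Ptprc was higher in Lep (4.92 to 21.7) than in Int (2.25 to 3.84), BrM (0 to 2.54) and Par (0 to 0.711). Csf1r ran from 0.703 to 48.6 in Lep and 0 to 0.664 in Par, and Itgam from 0 to 11.5 and 0 to 1.42. Aif1 was at most 1.28 in any library. Ttr, which defines choroid plexus, was at 0 in all LLC libraries. The part of these differences in the results was not tested. In bulk RNA, fewer cells of a type and less RNA per cell cannot be told apart.

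In HCC1954 the libraries of a stage lay close together, and many small differences passed the test without reaching 2-fold. Of the 30 genes 1 rose and 3 fell in Lep with Par, against 13.0% and 13.8% of all 15561 tested genes, with a median of -0.23. At an adjusted p under 0.05, 10 genes were higher and 17 lower whatever their size. The limma counts at an unadjusted p under 0.05 were the same 10 and 17. Of all tested genes 82.3% passed that limit, both directions together, so these counts say little about the set. The shares called in Lep with Par were below those of all tested genes in both directions.

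FADS1 showed the largest change. It had 484, 474 and 485 in Lep, 227 and 240.2 in Int and 392 and 413 in BrM, against 2158, 2343 and 2517 in Par, and every derivative library was below every Par library. Its log2 fold change was -2.28 ± 0.06 (SE, adjusted p = 7.68e-13) in Lep with Par, -3.32 ± 0.07 (SE, adjusted p = 3.15e-13) in Int with Par and -2.53 ± 0.07 (SE, adjusted p = 1.65e-12) in BrM with Par. FADS2, its neighbour in the pathway, was not called, at 0.27, 0.06 and 0.73 in the same comparisons. STARD4 had 491, 464 and 493 in Lep, 387 and 391 in Int and 139.8 and 147 in BrM, against 167, 159 and 158 in Par. Every Lep and Int library was above every BrM and Par library, with log2 fold changes of 1.58 ± 0.07 (SE, adjusted p = 1.69e-10) in Lep with Par, 1.26 ± 0.08 (SE, adjusted p = 8.84e-09) in Int with Par and 1.74 ± 0.08 (SE, adjusted p = 5.19e-10) in Lep with BrM.

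MVK had 155, 162 and 158 in Lep, 429 and 398 in Int and 285 and 248 in BrM, against 465, 468 and 463 in Par. It fell by 1.55 ± 0.07 (SE, adjusted p = 2.79e-10) in Lep with Par and fell by 1.38 ± 0.08 (SE, adjusted p = 9.81e-09) in Lep with Int. Its Lep libraries were lowest of all. SCD had 6389.7, 6347 and 6147 in Lep, 9552 and 6081 in Int and 13398 and 13481 in BrM, against 14878, 12671 and 14048 in Par. It fell by 1.14 ± 0.11 (SE, adjusted p = 6.04e-07) in Lep with Par and fell by 1.09 ± 0.13 (SE, adjusted p = 4.81e-06) in Lep with BrM, and the 2 Int libraries differed by more than the Lep libraries did. FASN had 13659, 13719 and 14058 in Lep, 28890.2 and 23914 in Int and 41411 and 39152 in BrM, against 25794, 25482 and 26987 in Par, highest in BrM and lowest in Lep. Its log2 fold change was -0.92 ± 0.05 (SE, adjusted p = 1.83e-09) in Lep with Par, just short of 2-fold, and -1.54 ± 0.06 (SE, adjusted p = 9.61e-11) in Lep with BrM, where it fell.

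INSIG1 had 469, 424 and 410.0 in Lep, 659.9 and 614 in Int and 963 and 909.8 in BrM, against 674, 732 and 718 in Par. It fell by 1.11 ± 0.07 (SE, adjusted p = 1.01e-08) in Lep with BrM. SREBF1 had 3058, 3189 and 3559 in Lep, 4744 and 4289 in Int and 5770.1 and 5797 in BrM, against 5318, 5087 and 5445 in Par, with -0.69 ± 0.05 (SE, adjusted p = 2.58e-08) in Lep with Par. Both were lower in every Lep library than in every BrM or Par library. SREBF2 differed less, with 3478, 3522 and 3367 in Lep, 4054 and 3971 in Int and 3699 and 3623 in BrM, against 4414, 4653 and 4739.8 in Par and a log2 fold change of -0.41 ± 0.03 (SE, adjusted p = 4e-08) in Lep with Par. HMGCS1 went the other way. It had 7726, 7627 and 7661 in Lep, 8595 and 8504 in Int and 7038 and 7041 in BrM, against 5864, 5940.4 and 5853 in Par, with 0.38 ± 0.02 (SE, adjusted p = 2.32e-09), less than 2-fold.

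The remaining comparisons of HCC1954 called few genes. In Int with Par 2 rose and 1 fell, against 6.60% and 14.6% of all tested genes, with a median of 0.11. Beside STARD4, SC5DL rose: it had 2155, 2161 and 1990.2 in Lep, 3191 and 2975 in Int and 1833 and 1873 in BrM, against 1447, 1626 and 1502 in Par, and its value of 1.02 ± 0.05 (SE, adjusted p = 1.41e-09) was below 2-fold without Int replicate 1 (0.97) or Par replicate 1 (0.98). In BrM with Par 0 rose and 1, FADS1, fell, against 9.63% and 14.0% of all tested genes, with a median of 0.12. At an unadjusted p under 0.05 limma gave 15 genes higher and 8 lower, edgeR 13 and 9, and DESeq2 14 and 8. Of all tested genes 78.1% passed that limit in limma, both directions together. Neither edgeR nor DESeq2 called a gene of the set higher. In Lep with Int 1 rose and 2 fell, against 11.7% and 3.47% of all tested genes, with a median of -0.28. FADS1 rose by 1.04 ± 0.07 (SE, adjusted p = 1.72e-08), and MVK and DHCR7 fell. DHCR7 had 1622, 1508 and 1648 in Lep, 3429 and 2979 in Int and 2723 and 2464 in BrM, against 2866, 2881 and 2855 in Par. Its log2 fold change in Lep with Int was -1.01 ± 0.06 (SE, adjusted p = 7.67e-09), and it was under 2-fold without Lep replicate 2 (-0.97) or Int replicate 1 (-0.90). Without Int replicate 1 FADS1 also missed the threshold, at 0.998. In Lep with BrM 1 rose and 3 fell, against 10.5% and 6.54% of all tested genes, with a median of -0.40.

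**Figure D4:**
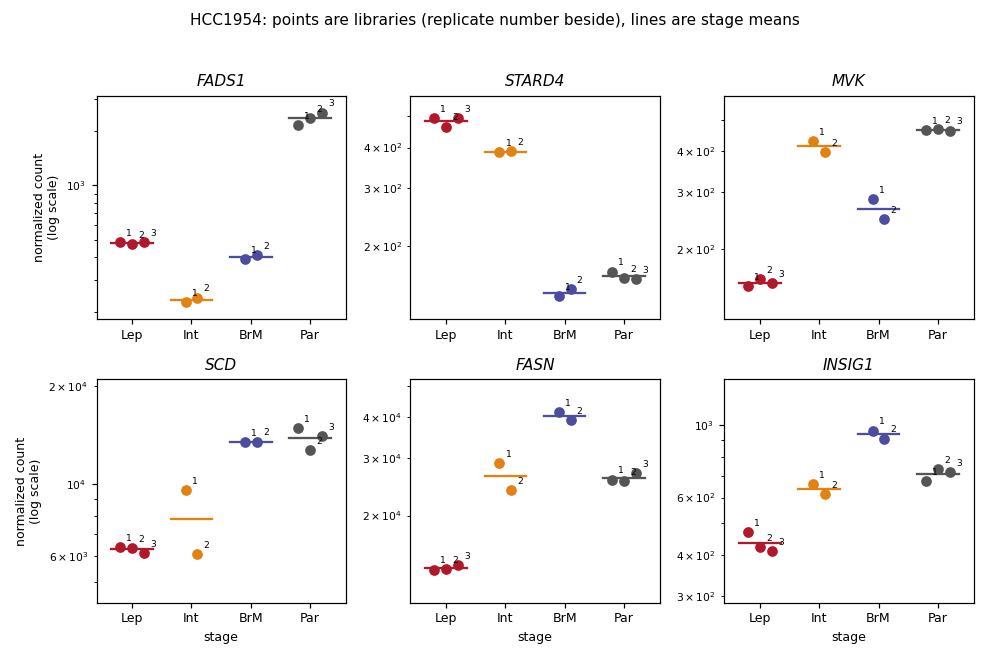
Normalized counts (log scale) of 6 genes in the 10 HCC1954 libraries, by stage; points are libraries with the replicate number beside them and lines are stage means. FADS1 is lower in all derivatives than in Par, STARD4 is higher in Lep and Int, and MVK, FASN and INSIG1 are lowest in Lep.

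In MDA-MB-231 the replicates of Lep, BrM and Par lay apart and those of Int close together, and in 4 of the 5 comparisons no gene of the set was called. The share of all genes that differed by at least 2-fold was 1.36% between the 2 Int libraries, 15.1% between the 2 Lep libraries, and up to 10.0% and 30.5% between 2 libraries of BrM and of Par. In Lep with Par 0 of 30 genes rose and 0 fell, against 0.0199% and 0.0463% of all 15106 tested genes, with a median of 0.17. With limma, edgeR and DESeq2 alike, 0 genes of the set had an unadjusted p under 0.05. Of all tested genes 10.6% did in limma, both directions together. ACSS2 and SREBF1 had the smallest p in Lep with Par, and neither passed. SREBF1 had 4439 and 6843 in Lep, 6724 and 5617 in Int and 7433, 5470.4 and 6398 in BrM, against 4110.4, 3901 and 4737 in Par, with 0.38 ± 0.22 (SE, adjusted p = 0.607), and its Lep and Par libraries overlapped.

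In Int with Par 1 gene, ACSS2, rose and 0 fell, against 4.33% and 2.61% of all tested genes, with a median of 0.13. It had 1492 and 1808 in Lep, 2439 and 2552 in Int and 1559, 1063 and 1257 in BrM, against 1139, 1181 and 1428 in Par, and both Int libraries were above all others. The log2 fold change of 1.00 ± 0.20 (SE, adjusted p = 0.0239) lay at the threshold, and ACSS2 was called in edgeR but not in DESeq2. At an unadjusted p under 0.05 limma gave 3 higher and 6 lower, and edgeR and DESeq2 2 and 6 each. Of all tested genes 35.6% passed that limit in limma, both directions together. DESeq2 called 0 higher and 3 lower (EBP, FDPS and PMVK), and edgeR 1 higher and 1 lower. The mevalonate genes had a median of -0.78 in Int with Par, and the genes of fatty acid synthesis 0.78. The calls of this comparison turned on single libraries. Without Par replicate 1, 5 genes rose and 5 fell: ACACA, FADS1, SCD, SREBF2 and STARD4 rose, and EBP, FDPS, MVK, NSDHL and PMVK fell. Without Int replicate 1, Int replicate 2 or Par replicate 2 none was called.

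SCD shows the spread. It had 8325 and 13772 in Lep, 15481 and 14276 in Int and 32582, 7229 and 14828 in BrM, against 13603, 3777 and 3686 in Par. Par replicate 1 was in the range of the derivatives and the other Par libraries were below every other library, while the BrM libraries differed by more than 4-fold. Its log2 fold changes of 0.90 ± 0.68 (SE, adjusted p = 0.715), 1.37 ± 0.68 (SE, adjusted p = 0.175) and 1.40 ± 0.61 (SE, adjusted p = 0.309) in Lep, Int and BrM with Par did not pass. INSIG1 had 3008 and 4081 in Lep, 2557 and 2243 in Int and 9633, 3512 and 5500.3 in BrM, against 4620.3, 2781 and 2594 in Par. SREBF2 had 3201 and 3166 in Lep, 4766 and 4520.1 in Int and 6612, 2815 and 3523 in BrM, against 4175, 1929 and 2098 in Par. In both, BrM replicate 1 was the highest library and Par replicate 1 was above the other Par libraries. HMGCS1 had 1557 and 1874 in Lep, 1633 and 1572 in Int and 3062, 1157 and 1847 in BrM, against 1752, 1157 and 989.7 in Par. FASN had 17808 and 18539.6 in Lep, 19175 and 15478 in Int and 27759, 13594 and 17497 in BrM, against 19549, 10950.2 and 10735 in Par. They showed the same pair of high libraries within BrM and Par. The log2 fold changes in Lep with Par were 0.12 for INSIG1, 0.31 for SREBF2, 0.44 for HMGCS1 and 0.46 for FASN, none past the test.

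**Figure D5:**
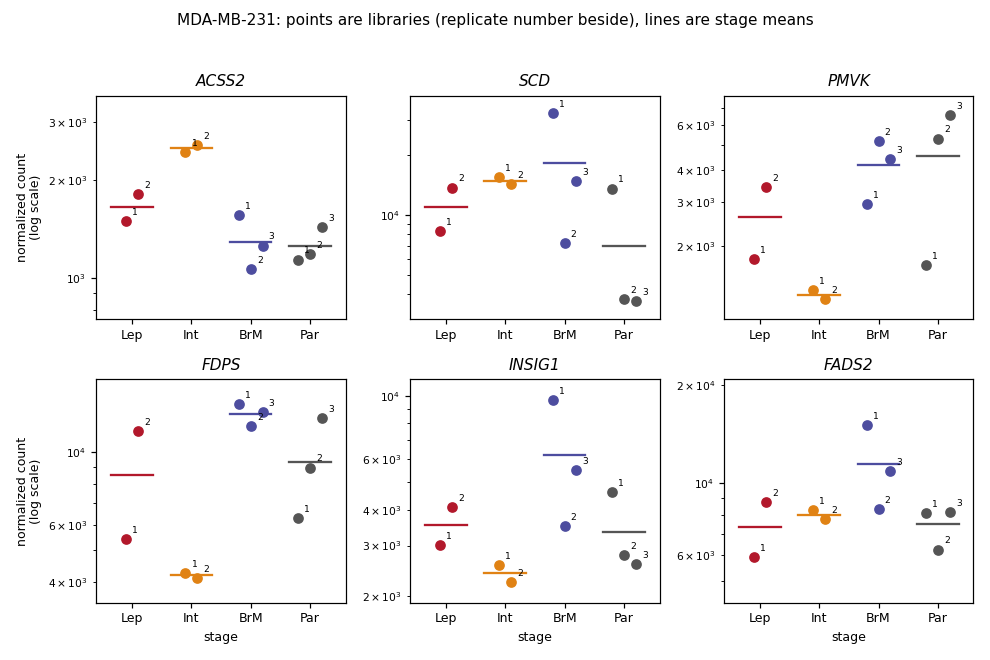
Normalized counts (log scale) of 6 genes in the 10 MDA-MB-231 libraries, by stage; points are libraries with the replicate number beside them and lines are stage means. SCD and INSIG1 are highest in BrM replicate 1, SCD is far higher in Par replicate 1 than in the other Par libraries, and ACSS2 is highest in the 2 Int libraries.

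In BrM with Par of MDA-MB-231 0 of 30 genes rose and 0 fell, against 0.344% and 0.106% of all tested genes, although 25 of the 30 fitted changes were positive and the median was 0.52. At an unadjusted p under 0.05 limma gave 9 higher and 1 lower, edgeR 8 and 1, and DESeq2 9 and 1, and edgeR and DESeq2 also called 0. Of all tested genes 15.5% passed that limit in limma, both directions together. With the replicate number as a block the set again had 0 called, with the smallest adjusted p at 0.118, and 36 genes of the whole table rose and 18 fell. A block within the BrM and Par libraries alone, chosen after the data were seen, also called 0 of the set, with the smallest adjusted p at 0.0516 (SCD), and 69 of all genes rose and 37 fell, against 52 and 16 without a block. Without a block the smallest p were those of IDI1 and DHCR7. IDI1 had 3024 and 4395 in Lep, 2348 and 2665 in Int and 6747, 4836 and 5746 in BrM, against 3863, 3825 and 3999 in Par, and its log2 fold change was 0.56 ± 0.18 (SE, adjusted p = 0.201). Its BrM libraries were all above its Par libraries. DHCR7 had 2584 and 2748 in Lep, 2193 and 2078 in Int and 7203, 2925 and 4128 in BrM, against 2977, 2195 and 2047 in Par, and its log2 fold change was 0.90 ± 0.30 (SE, adjusted p = 0.204). Its BrM and Par libraries overlapped, and neither gene passed. Without Par replicate 3 1 gene, ELOVL5, fell (-1.03).

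In Lep with Int 0 rose and 0 fell, against 0.0265% and 0.132% of all tested genes, with a median of 0.06. At an unadjusted p under 0.05 limma gave 6 higher and 1 lower, and edgeR and DESeq2 6 and 2 each. Both edgeR and DESeq2 called 0. Of all tested genes 14.0% passed that limit in limma, both directions together. NSDHL, a sterol dehydrogenase, had 2448 and 3665 in Lep, 1627 and 1603 in Int and 3952, 3543 and 3779.8 in BrM, against 2325, 3054 and 3472 in Par, and its log2 fold change was 0.89 ± 0.24 (SE, adjusted p = 0.18). MVK had 1556 and 2421 in Lep, 1069 and 964 in Int and 2826, 2604 and 2929 in BrM, against 1364, 2067 and 2519.6 in Par, and its log2 fold change was 0.93 ± 0.30 (SE, adjusted p = 0.245). Their Lep libraries were above their Int libraries without passing. In Lep with BrM 0 rose and 0 fell, against 0.344% and 0.483% of all tested genes, with a median of -0.25. With an unadjusted p under 0.05, limma gave 0 higher and 2 lower there, edgeR and DESeq2 1 and 3 each, and both called 0. Of all tested genes 21.6% passed that limit in limma, both directions together. The smallest p were those of IDI1 (-0.65 ± 0.20, adjusted p = 0.138) and FADS2 (-0.62 ± 0.27, adjusted p = 0.223). FADS2 had 5944 and 8771 in Lep, 8243 and 7765 in Int and 15044, 8314 and 10887 in BrM, against 8094, 6256 and 8175 in Par, with overlap between Lep and BrM.

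The MDA-MB-231 libraries also differed in the link with transcript length. Spearman's rho across genes ran from 0.010 to 0.222 in Lep, from 0.434 to 0.448 in Int, from -0.474 to -0.087 in BrM and from -0.449 to 0.468 in Par, where the high value was that of replicate 1. With length as a correction 1 gene rose and 1 fell in Int with Par. The part of this difference in the results was not tested.

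Other genes of the pathway were counted from 5 lists of 44 genes: SREBP processing; LXR and sterol efflux; sterol uptake, esterification and movement; isoprenoid branches and thiolases; and fatty acid supply, elongation, activation and oxidation. The last list also names SC5D, the newer symbol of SC5DL, which is a sterol gene of the set and not another gene. No row of the mouse table was found under the name SC5DL. In Lep with Par 1 of the 40 tested rose and 5 fell in PC9 (all tested genes 6.65% and 8.49%), 2 and 5 of 41 in LLC (8.00% and 12.3%), 5 and 6 of 42 in HCC1954 (13.0% and 13.8%), and 0 and 0 of 40 in MDA-MB-231 (0.0199% and 0.0463%). In Int with Par 2 rose and 4 fell in PC9 (6.24% and 7.71%), 1 and 1 in LLC (6.40% and 5.08%), 2 and 7 in HCC1954 (6.60% and 14.6%), and 2 and 1 in MDA-MB-231 (4.33% and 2.61%). In BrM with Par 1 rose and 1 fell in PC9 (4.62% and 3.10%), 4 and 7 in LLC (8.14% and 15.1%), 3 and 9 in HCC1954 (9.63% and 14.0%), and 0 and 0 in MDA-MB-231 (0.344% and 0.106%). Most of these counts are near or below what the shares of all tested genes give for a list of this size, so they say nothing particular about the lists, and the genes named next are given for their own values.

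Of the 4 genes of SREBP processing, MBTPS2 fell in PC9 in both Lep and Int with Par. MBTPS2, the site-2 protease that frees the SREBF products, averaged 405 ± 46.1 in Lep and 449.8 ± 3.4 in Int, against 1095 ± 35.7 in Par (SD, n = 2, 2 and 3). Its log2 fold changes were -1.44 ± 0.08 (SE, adjusted p = 3.58e-08) in Lep with Par and -1.28 ± 0.08 (SE, adjusted p = 8.36e-08) in Int with Par, the derivative where 15 genes of the set rose. SLC25A1, which exports citrate for fatty acid synthesis, rose in Int of PC9, at 1.04 ± 0.06 (SE, adjusted p = 5.13e-08). In LLC, Slc25a1 fell in Lep with Par, at -1.08 ± 0.12 (SE, adjusted p = 3.51e-05). Lpin1, a phosphatidate phosphatase, fell most there, with 350.4 ± 129 in Lep against 2043 ± 234 in Par (SD, n = 3 each; log2 fold change -2.61 ± 0.24, adjusted p = 6.5e-06). Acsl3, an acyl-CoA synthetase, fell by 1.90 ± 0.15 (SE, adjusted p = 2e-06), and Mylip, the ligase that removes lipoprotein receptors, fell by 1.89 ± 0.28 (SE, adjusted p = 0.000227).

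In HCC1954 ABCA1 and ABCG1 differed between the derivatives, while NR1H3 was low in all of them. ABCA1, which exports cholesterol to apolipoproteins, averaged 3377 ± 113 in Lep, 140.3 ± 27.8 in Int and 51.7 ± 10.9 in BrM, against 3027 ± 224 in Par (SD, n = 3, 2, 2 and 3). The log2 fold change was -4.43 ± 0.12 (SE, adjusted p = 3.38e-12) in Int with Par, -5.86 ± 0.12 (SE, adjusted p = 2.21e-13) in BrM with Par and 4.59 ± 0.12 (SE, adjusted p = 1.19e-11) in Lep with Int, and ABCA1 was not called in Lep with Par. ABCG1, a second sterol exporter, rose in Lep with Par, at 1.61 ± 0.13 (SE, adjusted p = 4.33e-08), and fell in Int with Par, at -1.41 ± 0.14 (SE, adjusted p = 7.89e-07). NR1H3, which encodes LXR alpha, fell in every derivative against Par, at -2.14 ± 0.09 (SE, adjusted p = 7.73e-11) in Lep, -2.27 ± 0.10 (SE, adjusted p = 2.78e-10) in Int and -1.80 ± 0.10 (SE, adjusted p = 2.04e-09) in BrM. STARD3, a late endosomal sterol binding protein whose gene lies beside ERBB2 in the human genome, averaged 37062 ± 1139.7 in Lep, 31212 ± 208 in Int and 86801 ± 708 in BrM, against 13936 ± 339 in Par. ERBB2 itself ran from 144250.0 to 150579 in Lep, 152226 to 153327 in Int and 394804 to 398639 in BrM, against 57461 to 59595 in Par. Both genes were highest in BrM and lowest in Par. Marker sums differed by stage here too. As in PC9, sums of human genes do not measure mouse host cells. The sum of 4 carcinoma markers was 54303 to 56357 in Lep, 97762 to 106904 in Int and 97176 to 98023 in BrM, against 149261 to 150954 in Par, and that of 3 endothelial markers 598 to 658 in Lep, 749 to 786 in Int and 4774 to 4803 in BrM, against 867 to 957 in Par. The sum of 5 macrophage and microglia markers was 2408 to 2681 in Lep, 1048 to 1309 in Int and 998 to 1018 in BrM, against 2715 to 2812 in Par, that of 5 fibroblast and pericyte markers 1278 to 1326 in Lep, 514 to 687 in Int and 498 to 509 in BrM, against 714 to 763 in Par, and that of 3 choroid plexus markers 42.2 to 56.3 in Lep, 23.7 to 24.1 in Int and 184 to 201 in BrM, against 173 to 234 in Par, with TTR at 0 in every library. The carcinoma sum was highest in Par and lowest in Lep, as were KRT8 and KRT18. EPCAM (10928 to 11208 in BrM, 10111.5 to 10417 in Par) and CDH1 (28772 to 29557.5 and 21314.5 to 21803) were highest in BrM. The endothelial sum was highest in BrM, as were PECAM1 and CDH5, while KDR was highest in Lep (80.0 to 118, against 24.6 to 50.1 in BrM). Their part in the HCC1954 results was not tested.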

How the data were processed

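Poly(A) RNA of 41 cultured cell samples was sequenced as paired reads from TruSeq v2 libraries on a HiSeq instrument, per the labels' protocols. FastQC 0.11.3, HTSeq 0.5.4 and DESeq2 were among the tools and hg19/GRCh37 and mm10/GRCm38 the builds, per the submitters' processing notes. The aligner was not given in the sources used here. Each deposited table holds a signal, which is the read count of a gene over a size factor that is the same for its whole library, so all values of a library are whole multiples of 1 step; 100% of values came out whole within 0.01 reads. For 1 library, Par replicate 1 of MDA-MB-231, the step cannot be read from the deposited signal as surely as for the others.

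Genes at 10 or more in at least 2 libraries were tested per model with limma-trend 3.58.1 (R 4.3.3) on log2(value + 1), with all 4 stages in 1 fit. There were 5 comparisons per model and 20 in all. A call needs a Benjamini-Hochberg adjusted p under 0.05 over all tested genes and a log2 fold change of at least 1. The scripts were tested on simulated data with 200 changed genes. Alternatives were edgeR 4.0.16 and DESeq2 1.42.0 on the recovered reads, quantile normalization, log2(value + 10), no filter, only the 2 stages compared, the replicate number as a block, transcript length as a correction (29 of 30 human genes had a length) and each library left out. On the recovered reads edgeR called, in Lep with Par, 1939 genes higher and 2264 lower for HCC1954, 4 and 4 for MDA-MB-231, 1053 and 1159 for PC9, then 1160 and 1620 for LLC.

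Every gene of the set is counted. Values in each library are given for called genes of Lep with Par (up to 4 a direction, by size), called genes of other comparisons (up to 2 a direction), the 2 smallest p where none was called, and HMGCS1, INSIG1, SREBF1, SREBF2, FASN and SCD or Scd1 in every model; other genes named were chosen after their values were seen. The genes of the set and the lists were chosen with earlier results of these data known. Same-numbered replicates deviated together in all 3 pairs only in BrM with Par of MDA-MB-231 (correlations of 0.231 to 0.5 over genes), so that comparison was also fitted with the number as a block, over all libraries of the model and, as an alternative chosen after the data were seen, within those 2 stages. Differently numbered libraries also correlated there (0.337 for BrM replicate 2 with Par replicate 3), so the block does not rest on shown pairs. In no other comparison were numbers treated as pairs.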

Additional observations from a re-analysis of the deposited data

Results flagged for a closer look

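Some genes of the set were called in opposite directions in different models under the same comparison, with no overlap between the stages compared. The models are separate tables and the difference was not tested. In Lep with Par, SCD was at -1.14 in HCC1954 and 2.03 in PC9, and Scd1 at -1.96 in LLC (log2 fold changes throughout). STARD4 was at 1.58 in HCC1954 and -3.22 in PC9, a fitted value that depends on the pseudocount because both Lep libraries had 0 reads (read as a bound, STARD4 in Lep was at least 3.39-fold lower than in Par and at least 16.9-fold lower than in BrM), and TM7SF2 was at 1.33 in PC9 with Tm7sf2 at -1.26 in LLC. In Int with Par, FADS1 was at -3.32 in HCC1954 and 1.03 in PC9, and FADS2 at 3.31 in PC9 with Fads2 at -1.01 in LLC. In BrM with Par, SCD was at 3.56 in PC9 and Scd1 at -1.13 in LLC. In Lep with Int, FADS1 was at 1.04 in HCC1954 and -1.22 in PC9, and Fads1 at -1.03 in LLC. Each of these 3 calls was lost when 1 library was left out: FADS1 was 0.998 in HCC1954 without Int replicate 1 and -0.74 in PC9 without Lep replicate 1, where it also failed without either Int library, and Fads1 was -0.89 in LLC without Lep replicate 1. In Lep with BrM, STARD4 was at 1.74 in HCC1954 and -5.43 in PC9, again fitted against 0 reads, and TM7SF2 at 1.40 in PC9 with Tm7sf2 at -2.19 in LLC. The PC9 value of SCD in Lep with Par rests on Lep replicate 2, as the library values show. Some LLC values fell under 2-fold with 1 library left out. They were Fads2 in Int with Par (-0.70 without Int replicate 1), Scd1 in BrM with Par (-0.99 without BrM replicate 2) and Tm7sf2 in Lep with Par (-0.87 without Lep replicate 2). Fads2 in Int with Par was also not called in edgeR or DESeq2.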

How the results depend on the processing

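Of 260 counts of called genes of the set under an alternative, 226 stayed within 1.5 times the main count and 34 did not. Of the single-gene values, 85 lost a call, 25 gained a call, and 2 turned in sign with a call in the main or the alternative fit. The other 2500 kept their side of the threshold. They include values called in neither fit, whose changes of sign were not counted. Counts outside 1.5 times were, in MDA-MB-231 Int with Par (1 in the main test), 2 with quantile normalization, length correction or edgeR, 3 with DESeq2 and 0 with log2(value + 10) or only 2 stages, and 0 to 10 with a library left out; in LLC Int with Par (2), 1 with log2(value + 10), edgeR, DESeq2 or the replicate block, and 1 to 2 with a library left out; in LLC BrM with Par (3), 5 with quantile normalization and 1 to 5 with a library left out. With only the 2 stages compared, PC9 had 2 in Lep with Par (5) and 0 in Lep with Int (4). HCC1954 BrM with Par had 2 with length correction (1), and Lep with Int 1 with quantile normalization (3). With a library left out, counts ran from 1 to 4 in HCC1954 Lep with Int, 0 to 1 in MDA-MB-231 BrM with Par, 2 to 10 in PC9 Lep with Par, 2 to 17 in PC9 Lep with Int and 4 to 12 in PC9 Lep with BrM. The 2 values that turned did so with a library left out: INSIG1 in PC9 Lep with Par (-0.067 to 2.31) and SCD in PC9 Lep with BrM (-3.19 to 0.12). The cause was not tested, except that leaving out a library or a stage leaves fewer samples. Replicate numbers were shared across stages, but correlations of same-numbered libraries ran from -0.109 to 0.142 in LLC and -0.0905 to 0.5 in MDA-MB-231, and every pair of 3 passed 0.1 only in BrM with Par of MDA-MB-231 (0.231 to 0.5); the block called 0 of the set there, as did a block within those 2 stages, added after the data were seen. Differently numbered libraries also correlated in that comparison, so the numbers are not shown to pair samples there or elsewhere. With the replicate block INSIG1 in PC9 Lep with Par was 1.08 and not called. Quantile normalization moved the split of all called genes to 2111 higher and 1739 lower in HCC1954 BrM with Par (1498 and 2171 in the main test), 1968 and 1649 in Int with Par (1027 and 2279, with the all-gene median at 0.12) and 1315 and 954 in Lep with Int (1817 and 540), and in LLC to 1579 and 1546 in BrM with Par (1099 and 2037) and 1578 and 1676 in Lep with Int (1143 and 1893). For PC9 Lep with Int it was 68 and 58 in edgeR and 55 and 48 in DESeq2 (33 and 55). In MDA-MB-231 the split was 189 and 85 in DESeq2, 35 and 20 with length correction and 4 and 4 in edgeR for Lep with Par (3 and 7); 1009 and 1158 in DESeq2 for Int with Par (654 and 395); 246 and 229 in DESeq2 for BrM with Par (52 and 16); 221 and 251 in DESeq2, 21 and 49 with length correction and 15 and 35 with quantile normalization for Lep with Int (4 and 20); and 470 and 274 in DESeq2 and 106 and 106 with length correction for Lep with BrM (52 and 73). Length correction was not run in LLC. Depth limits mainly STARD4 in PC9, at 0 reads in both Lep libraries.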

Other observations

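Lep was also compared with the remaining derivatives over the other genes of the pathway. Of the tested genes among the 44 listed, in Lep with Int 0 rose and 1 fell in PC9 (all tested genes 0.228% and 0.380%), 5 and 8 did in LLC (8.47% and 14.0%), 5 and 2 in HCC1954 (11.7% and 3.47%), and 0 and 0 in MDA-MB-231 (0.0265% and 0.132%). In Lep with BrM the counts were 3 and 7 in PC9 (7.83% and 10.8%), 1 and 3 in LLC (11.1% and 6.85%), 7 and 3 in HCC1954 (10.5% and 6.54%), and 0 and 0 in MDA-MB-231 (0.344% and 0.483%). Nothing particular to the lists is read from these counts. In LLC, Pdss1, which builds the side chain of coenzyme Q, rose in Lep with Par, at 1.44 ± 0.19 (SE, adjusted p = 0.000104), as did Tmem97, a sterol-responsive membrane protein, at 1.00 ± 0.24 (SE, adjusted p = 0.00439). Both rose in BrM with Par too, at 1.27 ± 0.19 (SE, adjusted p = 0.000219) and 1.09 ± 0.24 (SE, adjusted p = 0.00227), and neither was called in Lep with BrM. In MDA-MB-231 ABCA1 rose in Int with Par, at 3.33 ± 0.60 (SE, adjusted p = 0.0186), and ACAT2, a thiolase of the mevalonate pathway, fell, at -1.11 ± 0.18 (SE, adjusted p = 0.0141). In PC9 ABCG1 rose in Int with Par, at 1.94 ± 0.37 (SE, adjusted p = 0.000536).

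Outside PC9, too, some genes of the set differed by 2-fold between replicates of 1 stage. In MDA-MB-231, 7 of 30 genes were at least 2-fold lower in BrM replicate 2 than in BrM replicate 1 and 0 higher, against 5.16% and 4.85% of all genes, with a median of -0.69 on the log2 scale. In Par replicate 3 of that model 5 genes were at least 2-fold above Par replicate 1 and 5 below it, against 14.2% and 16.3% of all genes. In LLC, 4 genes were at least 2-fold higher and 1 at least 2-fold lower in Lep replicate 3 than in Lep replicate 2, against 4.86% and 9.01% of all genes, with a median of 0.34. In HCC1954 no gene of the set differed by 2-fold between any pair of replicates.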
